A study of Homo sapiens with 6 samples.

Results

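The 10 genes described here act in S phase, the part of the cell cycle in which DNA is copied: MCM2, MCM3, MCM4, MCM5, MCM6, MCM7, PCNA, RRM2, TYMS and CCNE2. They were chosen by symbol, as a set of known S-phase genes, with lower histone mRNA in these data already known. They are 10 of the 63190 genes in the RNA-seq data, and all were found, with 87 transcripts of 207167. The level of a gene is the sum of the RPKM of its transcripts (reads scaled to the length of the transcript and the size of the library). The libraries came from HEK293T-Rex cells, an embryonic kidney line in which doxycycline releases a tetracycline repressor from the promoter of an integrated construct (the sample labels name the line HEK293). In 3 libraries the cells overexpressed DIS3L2 D391N, a catalytically inactive form of the 3′ to 5′ exonuclease DIS3L2, and 3 libraries were controls. The study's methods describe doxycycline induction of the construct, but leave unsaid if the controls were given doxycycline too. The D391N cells are 1 stable line and the controls are another, so construct and line cannot be told apart. The question put to the 10 genes was whether lower levels of replication-dependent histone mRNA, which is made in S phase, went with lower levels of other S-phase genes.

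The 6 MCM proteins form the ring-shaped helicase that is loaded on origins of replication in G1 and unwinds DNA in S phase. PCNA is the sliding clamp that holds DNA polymerases on their template. RRM2 is the small subunit of ribonucleotide reductase, which makes deoxyribonucleotides, and TYMS is thymidylate synthase, which makes the thymine nucleotide. CCNE2 is cyclin E2, an activator of CDK2 at entry into S phase. Genes of this kind are known targets of E2F transcription factors, and their mRNA is highest around the G1/S boundary in dividing cells.

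RefSeq promoter windows, which run from 250 bases before to 50 bases after a gene start, were matched for 7 of the 10 genes, all but MCM4, MCM5 and CCNE2. An E2F-type motif, searched on both strands as TTTCCCGC, TTTCGCGC, TTTGCCGC and TTTGGCGC, was found in 6 of those 7 genes, against 3.99% of the 27305 genes with a window. Neither of the 2 windows of RRM2 held any of these motifs. Counted by window, 6 of 11 windows of these genes held a match, against 3.31% of all 35116 windows of the same length. The choice of the genes did not use the motif, but genes of this kind are known E2F targets, so a high share was likely in advance. The sequences (RefSeq, GRCh38.p14) are shown for the 6 genes with a match. Each is 30 bases, 5′ to 3′ on the strand of the gene, with the match in capitals.
MCM6, chr2:135876515-135876544, minus strand: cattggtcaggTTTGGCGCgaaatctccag
MCM7, chr7:100101388-100101417, minus strand: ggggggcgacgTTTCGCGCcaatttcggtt
MCM2, chr3:127598402-127598431, plus strand: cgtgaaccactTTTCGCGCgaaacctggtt
MCM3, chr6:52284728-52284757, minus strand: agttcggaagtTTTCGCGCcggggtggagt
PCNA, chr20:5126663-5126692, minus strand: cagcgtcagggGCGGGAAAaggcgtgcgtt
TYMS, chr18:657603-657632, plus strand: gcgggacggccGCGGGAAAaggcgcgcgga
In the MCM6 and MCM2 sequences a second match on the opposite strand overlaps the one in capitals. In PCNA and TYMS the match is to TTTCCCGC on the opposite strand. A match of letters is a description and not a measured binding site.

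By RefSeq on the same build, which the sample labels name as hg38, MCM2 lies at chr3:127598411-127622436, MCM3 at chr6:52264015-52284742, MCM4 at chr8:47960941-47978160 and MCM5 at chr22:35400140-35455031. MCM6 lies at chr2:135839626-135876443, MCM7 at chr7:100092728-100101397, PCNA at chr20:5114953-5126622, RRM2 at chr2:10122568-10211010, TYMS at chr18:657653-673578 and CCNE2 at chr8:94880224-94896693.

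The libraries were checked before the genes were compared. As the labels say, the D391N libraries were high in DIS3L2 (369, 467 and 512 RPKM in replicates 1, 2 and 3) and the controls low (11.8, 12.9 and 14.6 RPKM). Depth relative to control replicate 2 lay between 0.640 and 0.948 in the other 5 libraries. Of the markers of HEK293 cells, VIM (110 to 177 RPKM), KRT8, KRT18 and NEFL (26.9 to 88.0 RPKM) were present, and PAX2, LHX1 and NEFM reached at most 2.63 RPKM. Of the defining markers of other cell types, PTPRC, CD3E, ALB and COL1A1 reached at most 4.05 RPKM and HBB at most 7.12 RPKM. The D391N libraries were less alike than the controls: Pearson's r across genes was 0.885 to 0.935 among D391N libraries and 0.959 to 0.977 among controls. D391N replicate 1 had an r of 0.956 with control replicate 1 and of 0.885 with D391N replicate 2, so the counts of called genes are also given without it. It was the D391N library most like the controls, and D391N replicate 2 was the least like them (r of 0.824 to 0.865). Leaving out D391N replicate 1 gave more calls than leaving out any other library.

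None of the 10 genes differed between D391N and control cells past the threshold. Differences were fitted with limma on log2(RPKM + 0.1) over the 20714 genes that averaged at least 1 RPKM. A gene was called at a limma p under 0.05 after Benjamini-Hochberg adjustment. All 10 genes passed the filter on low values, none was called, and none had an unadjusted p under 0.05 in this fit. Over all genes tested, 0.14% were called and 22.7% had an unadjusted p under 0.05. Of the 10 fitted log2 fold changes, 6 were above 0 and 4 below, beside 42.7% above and 57.3% below over all genes tested. Their median was 0.08, beside -0.09 over all genes tested. The 95% intervals reached from -0.87 to 0.76 on the log2 scale, which corresponds to folds of 0.547 to 1.70. The interval of MCM4 passed 2-fold under other settings, to 1.35 on the log2 scale with quantile normalization and to 1.06 with values scaled to library size only, and that of MCM7 reached -1.04 without control replicate 1. Some settings gave intervals that left out 0, though without a call. That of MCM7 lay below 0 without D391N replicate 2 (-0.94 to -0.11), without the limma trend, with no filter and with a filter of 0.1 RPKM. With values scaled to library size only, that of MCM5 lay below 0 (-0.93 to -0.21). With median centring, that of MCM6 lay above 0 (0.09 to 0.98). In bulk RNA, fewer cells in S phase and less of an mRNA per cell cannot be told apart.

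MCM4 had the highest level, with 643, 907 and 590 RPKM in D391N cells (replicates 1, 2 and 3, in this order throughout) and 618, 637 and 583 RPKM in controls. D391N replicate 2 stood above the other 5 libraries, which overlapped. The fitted log2 fold change was 0.19 (SE 0.24, limma adjusted p = 0.664).

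MCM3, its partner in the helicase ring, showed the same library on top, with 212, 308 and 188 RPKM in D391N cells. The controls lay at 214, 212 and 218 RPKM, and the log2 fold change was 0.10 (SE 0.22, limma adjusted p = 0.813). The 3 controls were within a narrow range that lay between the D391N libraries.

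MCM7 was 1 of 2 genes whose groups did not overlap, against 31.2% of all genes tested. It was listed at 315, 357 and 270 RPKM in D391N cells and at 420, 435 and 404 RPKM in controls, so every D391N library was below every control. The log2 fold change was -0.43 (SE 0.19, 95% interval -0.87 to 0.02), with an unadjusted p of 0.0562 and an adjusted p of 0.230 by limma. The two-sided exact permutation test gave p = 0.10, the smallest that 3 libraries against 3 allow. Any gene whose groups do not overlap gives this value, so the test adds nothing to that.

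MCM6 was the other, in the opposite direction. It had 86.4, 77.0 and 84.6 RPKM in D391N cells and 72.5, 71.5 and 56.2 RPKM in controls (82.7 ± 4.998 against 66.8 ± 9.14, SD, n = 3 each). The log2 fold change was 0.32 (SE 0.16, 95% interval -0.06 to 0.69), with a limma adjusted p of 0.282 and an exact permutation p of 0.10. The subunits of 1 complex therefore included both the highest and the lowest fitted change among the 10 genes, and neither passed the test.

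MCM2 and MCM5, the least abundant helicase subunits, overlapped between groups. MCM2 was listed at 48.4, 63.6 and 48.7 RPKM in D391N cells and at 59.4, 60.2 and 53.5 RPKM in controls, with a log2 fold change of -0.12 (SE 0.16, limma adjusted p = 0.700). MCM5 had 38.0, 57.6 and 45.1 RPKM against 58.3, 54.3 and 45.0 RPKM, with a log2 fold change of -0.18 (SE 0.20, limma adjusted p = 0.634). In both genes D391N replicate 2 was the highest of its group, as in MCM3, MCM4 and MCM7.

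PCNA was listed at 216, 175 and 301 RPKM in D391N cells and at 261, 261 and 195 RPKM in controls. Here D391N replicate 2 was the lowest library and replicate 3 the highest, and the log2 fold change was -0.08 (SE 0.25, limma adjusted p = 0.885).

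Of the enzymes of nucleotide synthesis, RRM2 had 124, 160 and 131 RPKM in D391N cells and 124, 135 and 130 RPKM in controls (log2 fold change 0.08, SE 0.16, limma adjusted p = 0.791). TYMS had 135, 94.9 and 115 RPKM against 107, 111 and 105 RPKM (log2 fold change 0.08, SE 0.17, limma adjusted p = 0.813). In both genes the D391N libraries ranged on both sides of the control mean.

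CCNE2 was the least abundant of the 10 genes. It was listed at 20.8, 22.1 and 27.4 RPKM in D391N cells and at 26.3, 22.2 and 17.2 RPKM in controls (log2 fold change 0.11, SE 0.20, limma adjusted p = 0.781). The groups overlapped, with 17.2 to 27.4 RPKM over all 6 libraries.

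**Figure D1:**
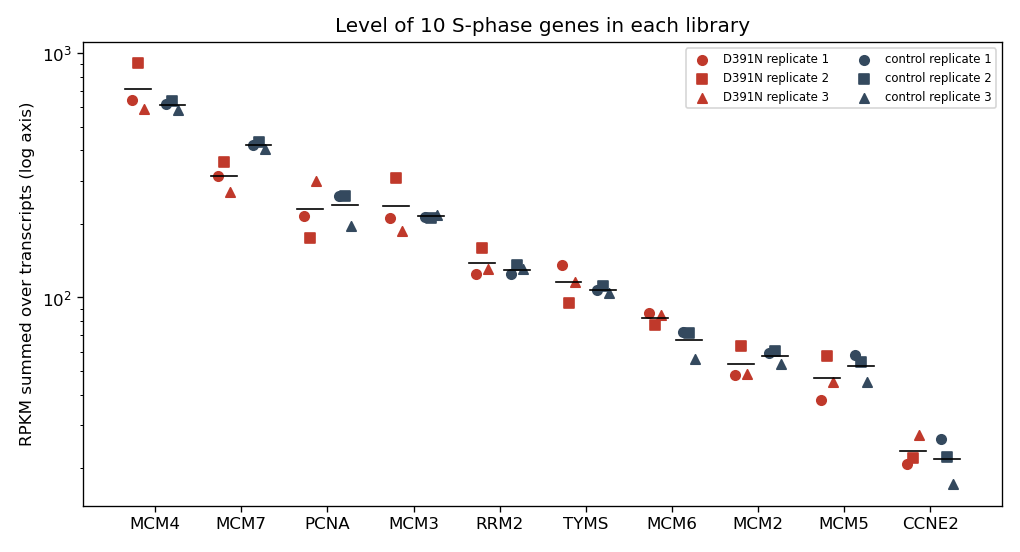
RPKM of each gene (log axis), summed over its transcripts, in the 3 D391N and 3 control libraries, with points for libraries and lines for the mean of each group. The D391N points of MCM7 lie below its controls and those of MCM6 above, and the other 8 genes overlap.

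**Figure D2:**
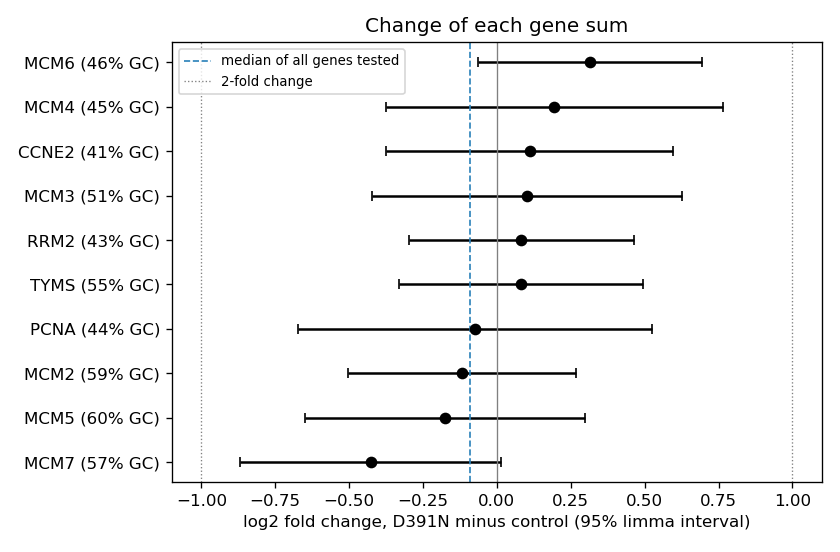
Fitted log2 fold change of each gene (x axis, D391N minus control) with its 95% limma interval, beside the GC content of its most abundant annotated transcript. Every interval includes 0 and lies inside a 2-fold change, and the dashed line marks the median of -0.09 over all genes tested.

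Averaged over the 6 libraries, the order of levels per length was MCM4 (663 RPKM), MCM7 (367), PCNA (235), MCM3 (225), RRM2 (134), TYMS (111), MCM6 (74.7), MCM2 (55.6), MCM5 (49.7) and CCNE2 (22.7). The ranges over libraries overlapped for the neighbours MCM7 and PCNA, PCNA and MCM3, RRM2 and TYMS, MCM6 and MCM2, and MCM2 and MCM5. They did not overlap between MCM4 and MCM7, between MCM3 and RRM2, between TYMS and MCM6, or between MCM5 and CCNE2. The subunits of the helicase, which joins them in equal numbers, thus spanned levels from 49.7 to 663 RPKM in these sums, which include non-coding transcripts of the same genes. The controls were the tighter group: the median SD of log2 values was 0.24 in D391N and 0.08 in control libraries over the 10 genes, and it was larger in D391N for 8 of 10. Over all genes tested these medians were 0.35 and 0.19, and the SD was larger in D391N for 76.0%, a share close to that of the 10 genes.

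The libraries of the 2 groups did not separate by the median of the 10 genes. Taken as deviations from the mean of each gene over 6 libraries, their median came to -0.10, 0.13 and -0.08 for D391N and to 0.04, 0.01 and -0.10 for control cells, so both groups lay on both sides of 0. By the smallest root mean square difference from their mean deviation in the 6 libraries, among 8614 other genes with at least 10 RPKM, the most alike were NARS2, MESD, PPP3CA, FAM217B and EFTUD2 (0.03 to 0.04 on the log2 scale). These had nearly the same level in each library, for example NARS2 with 16.7, 18.6 and 18.1 RPKM in D391N and 18.7, 18.2 and 16.04 RPKM in controls.

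The sums hide differences among transcripts. BitSeq, the program the study used, splits a read shared by several transcripts, so that a shift between transcripts of 1 gene can also be a shift in that division. Of the 87 transcripts 58 averaged at least 1 RPKM, and none of the 58 was called, beside 0.0604% of the 54671 transcripts tested. At an unadjusted p under 0.05 there were 12 of 58, 4 higher and 8 lower, beside 17.6% of all transcripts tested (6.86% higher and 10.7% lower). Groups did not overlap in 13 of 58, 4 higher and 9 lower, beside 25.8% of all (10.1% higher and 15.6% lower). Their median log2 fold change was -0.04, beside -0.07 over all transcripts. Without D391N replicate 1, 7 of the 58 passed the threshold, 5 higher and 2 lower, beside 9.07% of all transcripts tested in either direction. Still none of the 10 gene sums passed without that library, beside 10.9% of genes in either direction. The most abundant transcript of each gene rested on an estimated 45.5 to 6807 reads per library, and it was protein coding in 5 of the 10 genes. The transcripts named below beyond the most abundant ones were chosen after their values were seen, and some rested on fewer reads.

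For MCM7, whose introns also hold a microRNA cluster, the lower sum lay in a retained-intron transcript and in transcripts with no annotation here. The most abundant, ENST00000477372, had 139, 110 and 81.8 RPKM in D391N cells and 193, 194 and 192 RPKM in controls (log2 fold change -0.84, SE 0.28, limma adjusted p = 0.214). A second one, ENST00000491245, had 56.0, 67.2 and 56.9 RPKM against 92.3, 97.9 and 94.1 RPKM. The retained-intron transcript ENST00000489841 had 9.60, 9.19 and 14.97 RPKM against 28.4, 32.01 and 25.7 RPKM, with a log2 fold change of -1.37 and the smallest limma adjusted p of the 58 transcripts, 0.117. In each of these 3 transcripts every D391N library was below every control.

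The main protein-coding transcript of MCM7 lay on the other side. ENST00000425308 had 66.5, 104 and 69.0 RPKM in D391N cells and 52.3, 53.6 and 44.5 RPKM in controls (log2 fold change 0.65, SE 0.27, limma adjusted p = 0.282). Protein-coding transcripts made up 22.8% to 30.5% of the MCM7 sum in D391N libraries and 11.4% to 13.3% in controls, without overlap.

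In MCM5 the coding share went the opposite way, with 40.2% to 65.7% in D391N libraries and 69.2% to 76.5% in controls. Its most abundant transcript, the coding ENST00000382011, had 12.8, 14.5 and 13.8 RPKM against 26.0, 24.4 and 19.3 RPKM (log2 fold change -0.75, SE 0.23, limma adjusted p = 0.199). The short ENST00000465557, of 587 nt and without a defined coding sequence, had 2.43, 25.5 and 13.9 RPKM against 2.63, 2.59 and 5.58 RPKM. It rested on an estimated 1.86 reads in D391N replicate 1 and on 2.92 to 5.64 reads in controls. The nearly equal MCM5 sums of the groups were thus made of different transcripts in D391N replicates 2 and 3, while D391N replicate 1 had the lowest level of the short transcript of all 6 libraries.

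Of the other helicase genes, MCM4 had a coding share of 17.4% to 30.3% in D391N libraries and 14.5% to 14.9% in controls. Its most abundant transcript, ENST00000519470, has a retained intron and had 130, 266 and 81.6 RPKM against 97.7, 116 and 111 RPKM. Part of the high MCM4 sum of D391N replicate 2 came from ENST00000524086, a transcript marked for nonsense-mediated decay, with 91.4 RPKM in that library and 0.104 to 0.707 RPKM in the other 5. The most abundant coding transcript of MCM2, ENST00000265056, had 5.07, 3.68 and 6.52 RPKM against 9.10, 7.44 and 8.36 RPKM, while the most abundant of all, ENST00000474964, had 18.7, 31.6 and 22.7 RPKM against 19.9, 19.7 and 16.3 RPKM. The most abundant transcript of MCM6, ENST00000492091 of 712 nt, had 56.1, 46.0 and 47.3 RPKM against 40.2, 37.7 and 30.1 RPKM, without overlap. The coding transcript of MCM6, ENST00000264156, had 29.95, 30.1 and 36.5 RPKM against 31.5, 32.8 and 25.7 RPKM, so that the difference in the sum lay in the short transcript. For MCM3 the most abundant transcript, ENST00000421471, carried the excess of D391N replicate 2, with 120, 221 and 104 RPKM against 116, 115 and 136 RPKM.

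PCNA had only 2 transcripts, both coding, and ENST00000379143 made up nearly all of its sum, with 213, 169 and 295 RPKM in D391N cells and 256, 256 and 194 RPKM in controls. Its second transcript, ENST00000379160, had 1.40 to 6.19 RPKM. RRM2 was mostly ENST00000485717, a retained-intron transcript of 573 nt, with 91.0, 120 and 78.8 RPKM against 89.3, 104 and 103 RPKM. Its main coding transcript, ENST00000304567, had 28.7, 18.1 and 19.4 RPKM against 25.8, 24.6 and 16.6 RPKM, and the groups overlapped in both.

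For TYMS the most abundant transcript, ENST00000323250, had 78.3, 29.1 and 28.2 RPKM in D391N cells and 39.8, 34.997 and 46.8 RPKM in controls. The coding ENST00000323274 had 1.58, 1.17 and 5.07 RPKM against 8.31, 15.8 and 16.1 RPKM, with a log2 fold change of -2.54 (SE 0.57, limma adjusted p = 0.138), and the retained-intron ENST00000579128 had 7.36, 27.2 and 28.0 RPKM against 8.93, 5.76 and 5.12 RPKM. TYMS overlaps ENOSF1 (21.1 to 36.0 RPKM) and an antisense gene, TYMSOS, with 2.57 to 2.94 RPKM in D391N and 4.59 to 5.35 RPKM in controls, and whether counting used the strand is not given in the sources used here. For CCNE2 the most abundant transcript, the coding ENST00000396133, had 7.85, 17.3 and 14.0 RPKM against 5.90, 6.58 and 5.28 RPKM (log2 fold change 1.06, SE 0.34, limma adjusted p = 0.208), without overlap. Pseudogenes of PCNA, RRM2 and TYMS could share reads with these genes. They were listed at 0.140 RPKM or less, except for RRM2P3 at 1.01 to 3.09 RPKM.

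Over the most abundant coding transcript of each of the 10 genes, 4 did not overlap between groups, those of MCM7 and CCNE2 higher and those of MCM5 and MCM2 lower in D391N, beside 25.8% of all transcripts tested, and none was called.

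**Figure D3:**
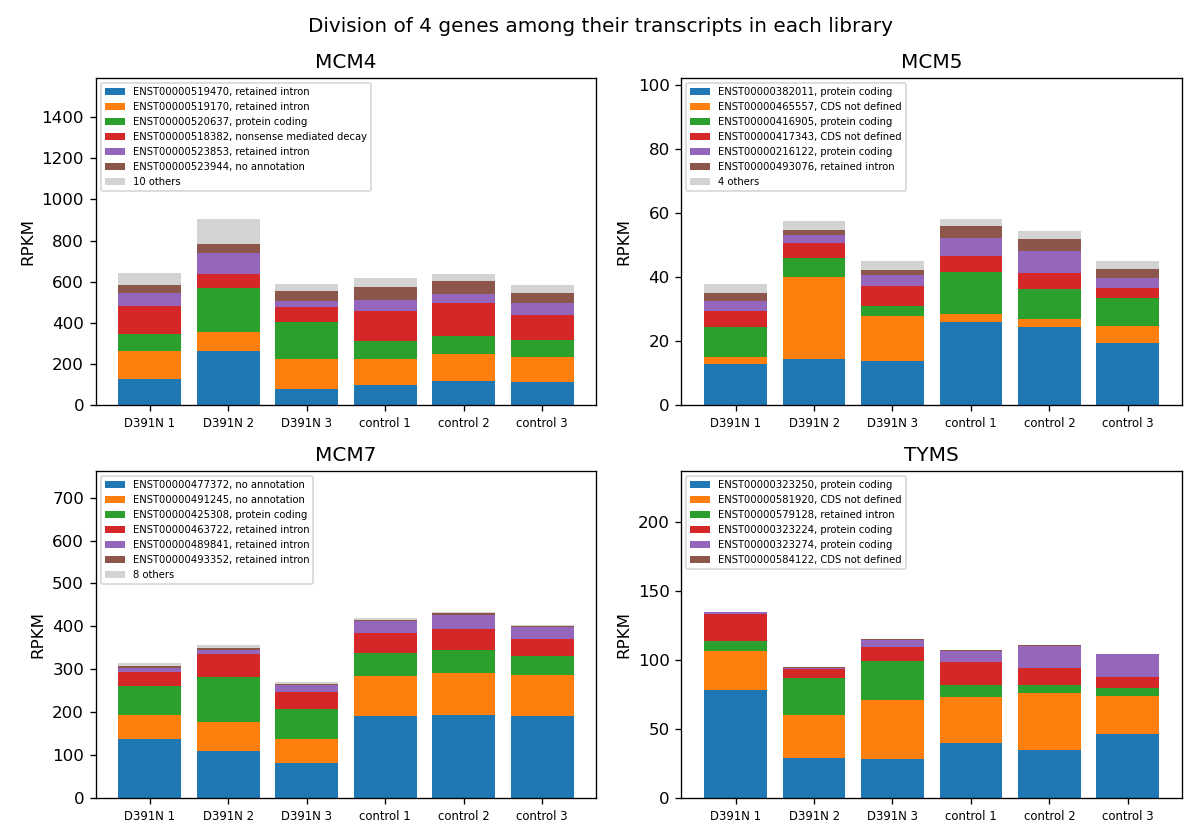
RPKM of MCM4, MCM5, MCM7 and TYMS in each library, stacked by transcript (the 6 most abundant of each gene, with the others in grey). Within MCM7 the 2 lowest segments shrink in D391N libraries while the green coding segment grows, and the orange MCM5 segment is large in D391N replicates 2 and 3.

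Another 76 genes of DNA replication, in 7 lists by role, gave the setting of the 10 genes. None of the 76 was called, 50 were higher and 26 lower in D391N, and their median log2 fold change was 0.07. At an unadjusted p under 0.05 there were 10 higher and 9 lower, beside 6.76% and 16% of all genes. Groups did not overlap in 18 higher and 13 lower, beside 10.5% and 20.7% of all genes, and the smallest adjusted p was 0.0881. Without D391N replicate 1, 4 of the 76 passed in the higher and 3 in the lower direction. In that fit 10.9% of all genes were called in either direction and 7.59% were called lower. With any other library left out, none of the 76 was called. Values for these lists are gene sums, and their p-values are limma p-values adjusted over all genes.

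Of 10 genes that license origins or load the MCM ring, 8 were higher and 2 lower, with a median of 0.24 on the log2 scale. GMNN, the licensing inhibitor geminin, had 244, 330 and 263 RPKM in D391N cells and 193, 160 and 141 RPKM in controls (log2 fold change 0.76, adjusted p = 0.119), and ORC4, a subunit of the origin recognition complex, had a log2 fold change of 0.41 (adjusted p = 0.175). Of 13 genes of origin firing and partners of the helicase, 10 were higher, with a median of 0.26. They included both DBF4, the activator of the CDC7 kinase, at 0.92 (adjusted p = 0.115), and GINS2, a helicase partner, at -1.07 (adjusted p = 0.0974). Of the 10 licensing genes, 3 were higher and 0 lower without overlap between groups. Of the 13 firing and helicase partner genes, 6 were higher and 1 lower without overlap, beside 10.5% and 20.7% of all genes. GMNN, ORC4, DBF4 and GINS2 were among them, but they were named for the smallest unadjusted p of their lists.

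Of 12 replicative polymerase and primase genes, 5 were higher and 7 lower (median -0.11), a direction that turned with median centring (8 higher, 4 lower, median 0.11) and in 3 other settings. They included POLD1 at -0.53 (adjusted p = 0.120) and POLD2 at -0.48 (adjusted p = 0.157), both subunits of the polymerase that PCNA holds. Of 12 clamp loader and fork genes, 8 were higher and 4 lower (median 0.08), with RFC5 at 0.39 (adjusted p = 0.186) and RFC1 at 0.58 (adjusted p = 0.273), which load PCNA. The 9 genes of nucleotide synthesis beside RRM2 and TYMS had 5 higher and 4 lower and a median of 0.0038, which turned below 0 in 4 settings that each left out 1 library. They included SHMT1 at -0.35 (adjusted p = 0.174) and DTYMK, the kinase that acts on the product of TYMS, at -0.40 (adjusted p = 0.179). None of these lists had a called gene in the fit of all 6 libraries.

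Among 12 G1/S cyclins, kinase and E2F genes, 9 were higher and 3 lower (median 0.12). E2F2, an activator of S-phase genes, had 5.47, 3.61 and 3.05 RPKM in D391N cells and 8.54, 9.26 and 10.2 RPKM in controls, with a log2 fold change of -1.23 (adjusted p = 0.0881). RB1, which restrains E2F factors, had 44.7, 34.0 and 35.3 RPKM against 22.8, 24.9 and 20.01 RPKM, with a log2 fold change of 0.74 (adjusted p = 0.101). In this list, 4 genes were higher and 3 lower without overlap between groups, beside 10.5% and 20.7% of all genes. E2F2 and RB1 were among them, but they were named for the smallest unadjusted p of the list. A link of either gene to the levels of the 10 genes was not tested. Of 8 genes of S-phase chromatin, 5 were higher and 3 lower (median 0.04, below 0 without D391N replicate 2 and without control replicate 1), with the histone chaperone genes ASF1B at -1.02 (adjusted p = 0.102) and CHAF1B at -0.53 (adjusted p = 0.111).

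Outside S phase, 20 G2/M genes had 15 higher and 5 lower values with a median of 0.21 and none called. Without D391N replicate 1, 2 of them were called higher and the median was 0.39. In that fit 10.9% of all genes were called in either direction and 7.59% were called lower. With any other library left out, none of the 20 was called. CENPE, a kinetochore motor, was at 0.79 (adjusted p = 0.172) and the mitotic kinase TTK at 0.54 (adjusted p = 0.182). The 5 tested CDK inhibitors of 6 were all lower, with a median of -0.69 and none called, beside 57.3% of all genes with a fitted change below 0. Without D391N replicate 1, 1 of the 5 was called lower, beside 7.59% of all genes called lower in that fit. With any other library left out, none of the 5 was called. Without D391N replicate 2, 1 of the 5 was higher. CDKN2A, which encodes p16, had 32.2, 23.5 and 41.6 RPKM against 76.9, 63.0 and 53.3 RPKM (log2 fold change -1.01, adjusted p = 0.109), and CDKN1A, which encodes p21, was at -0.69 (adjusted p = 0.114).

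On the histone side of the question, most genes had fitted changes below 0. Of 62 replication-dependent histone genes, whose mRNA ends in a stem-loop and is made in S phase, 45 passed the filter, and 43 of these were lower and 2 higher in D391N, with a median log2 fold change of -0.92. Only 1 of the 45, H2BC10, was called, with 0.0772, 0.0853 and 0.180 RPKM in D391N cells and 4.79, 3.58 and 2.60 RPKM in controls (limma adjusted p = 0.0282), beside 0.135% of all genes called lower. H2BC10 passed the filter on low values only through its controls, and its D391N values lay near the 0.1 RPKM added before the log. Of the 45, 22 were lower without overlap, beside 20.7% of all genes. Summed over the histone genes, the level was 5348, 3423 and 5293 RPKM in D391N cells and 7548, 7571 and 6289 RPKM in controls, without overlap. Without D391N replicate 1, 11 of the 45 passed, all lower, beside 7.59% of all genes called lower in that fit. No histone gene was called when any 1 of the other 5 libraries was left out, and without D391N replicate 2 the median was -0.51.

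Set side by side, the summed level of the 10 S-phase genes was 1839, 2223 and 1801 RPKM in D391N cells and 1962, 2000 and 1808 RPKM in controls, with overlap. The library with the lowest histone sum, D391N replicate 2, had the highest sum of the 10 genes. MCM4 alone had 907 RPKM in that library and 583 to 643 RPKM in the others. PCNA had its lowest level there, 175 RPKM, so the 10 genes did not all go with the sum. The median deviation of the 10 genes minus that of the histone genes on the log2 scale came to 0.00017, 1.29 and 0.06 for D391N and to -0.56, -0.63 and -0.33 for control cells. Lower histone mRNA in these data was already known, so a separation in this direction was likely in advance. The median deviations of the 10 genes alone overlapped between groups. These differences are described for these libraries, and no test of them was made.

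**Figure D4:**
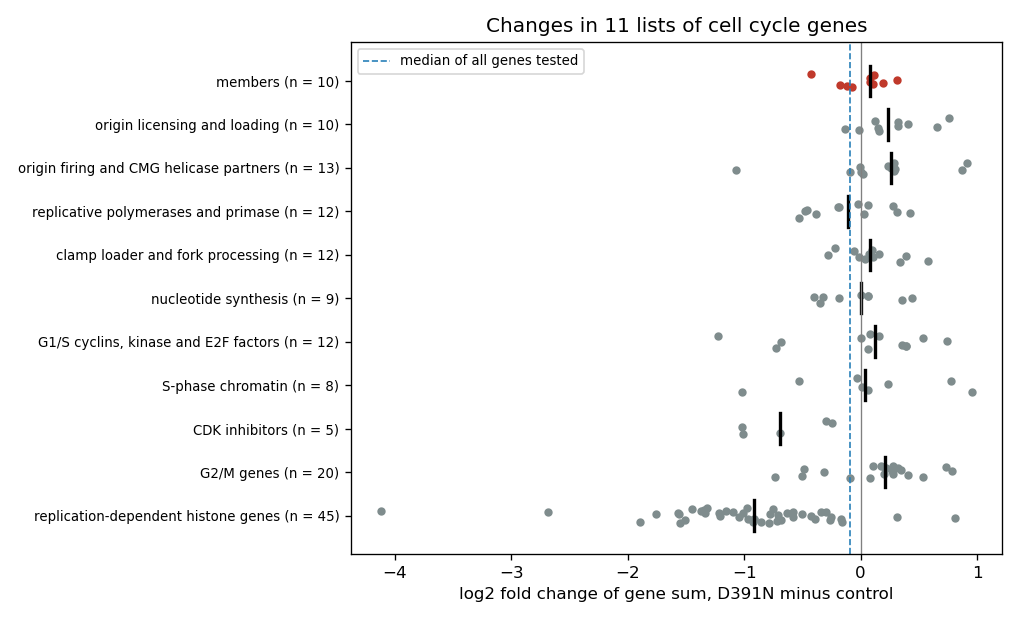
Fitted log2 fold change of each tested gene (x axis, D391N minus control) in the 10 S-phase genes (members, red) and 10 other lists, with black lines for medians. The medians of the replication lists lie between -0.11 and 0.26, beside -0.69 for CDK inhibitors and -0.92 for histone genes.

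**Figure D5:**
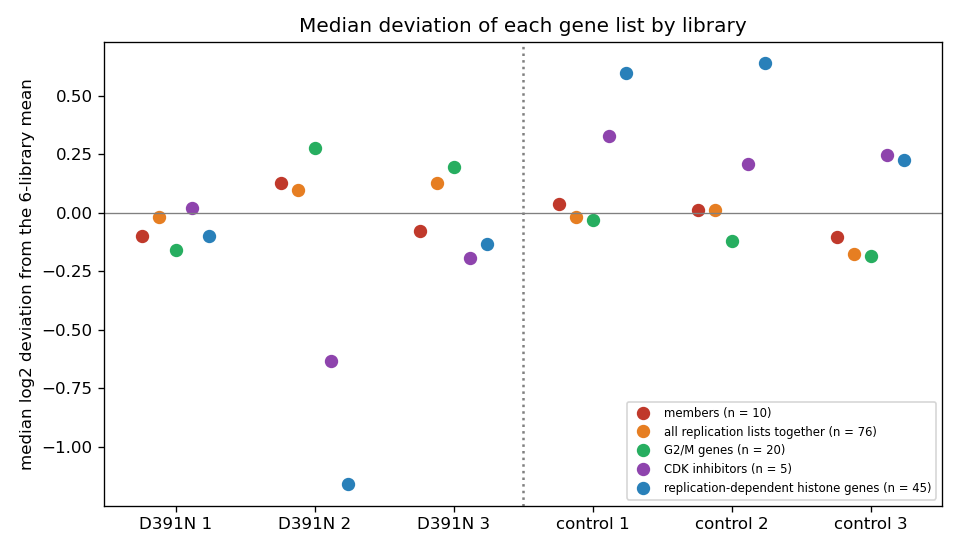
Median log2 deviation of each list from its genes' mean over the 6 libraries (y axis), by library, with 1 point per list. The red points of the 10 S-phase genes (members) stay between -0.10 and 0.13, while the blue histone points run from -1.16 in D391N replicate 2 to 0.64 in control replicate 2.

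Base composition moved with the direction of change. Across the 19386 tested genes with an annotated transcript, the Spearman correlation of GC content with the log2 fold change was -0.36, a description over genes measured in the same 6 libraries. With the genes in 4 equal groups by GC, the median log2 fold change was 0.16 in the lowest group and -0.39 in the highest. The 3 helicase genes with fitted changes below 0, MCM7, MCM2 and MCM5, have 57.4%, 59.0% and 59.95% GC in their most abundant annotated transcript and belong to the highest group, as does TYMS with 55.3%. PCNA, also with a fitted change below 0, has 43.5%. For MCM7 the value is that of the coding ENST00000425308, which was higher in D391N. The 2 most abundant MCM7 transcripts have no GC content here, so the GC centring below also used ENST00000425308. MCM6, with the highest fitted change, has 46.5%, and CCNE2 has the lowest content, 40.6%.

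When each library was centred within 20 bins of GC content, an alternative added after the data were seen, the fitted log2 fold change of MCM7 was -0.13, of MCM2 0.24, of MCM5 0.26 and of MCM6 0.34, and none of the 10 was called. The median of the 10 genes was then 0.21, beside 0.00 over all genes. The histone genes, with a median of 58.2% GC, then had 37 of 45 lower, all of them among the 43, with a median of -0.57 and 1 called, and the CDK inhibitors a median of -0.40 with 5 of 5 lower. Medians were then 0.25 for the licensing, 0.15 for the firing, 0.14 for the G2/M and 0.07 for the G1/S genes. They were 0.30 for S-phase chromatin, 0.17 for clamp loader and fork, 0.05 for nucleotide synthesis and -0.03 for polymerase genes.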

How the data were processed

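The RNA-seq comprised 3 libraries of D391N-expressing and 3 of control cells. The authors depleted rRNA, used cutadapt for trimming and Segemehl for alignment to the Ensembl transcriptome of GRCh38, coding and non-coding, and estimated levels with BitSeq (versions are not given in the sources used here). The deposited values are, per transcript and library, the natural log of RPKM as a BitSeq posterior mean, and a posterior variance. Their BitSeq differential test was left out, since it works on posterior samples, which were not analysed here.

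Natural log values were exponentiated and summed over the transcripts of a gene. Genes and transcripts averaging at least 1 RPKM were fitted with limma 3.58.1 (trended empirical Bayes, no block) in R 4.3.3 on log2(RPKM + 0.1), so fold changes of low genes are understated, and p-values were adjusted by Benjamini-Hochberg over all features. The fit was also run on simulated data with the same spread in both groups and no GC trend. These libraries differ in both respects, so that run cannot show how the fit behaves on them. Symbols were matched for 88.2% of gene identifiers and lengths for 90.2% of transcripts (from a GRCh37 annotation, used for length, biotype and GC content only). Tables and figures used Python 3.11.15, pandas 2.3.3, numpy 2.4.6, scipy 1.17.1 and matplotlib 3.10.9. Read totals were not used, relative depth was taken from the level at which unread transcripts are listed, and reads behind a value from its variance, which covers counting and assignment error only. Nothing says that replicates were separate cultures, so p-values set a group difference against the spread between these libraries, which may be technical. The study describes 3 indexed libraries sharing a lane. How the 6 libraries were divided among lanes is not stated, so lane and group may not be separable.

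The 10 genes and all lists were chosen with earlier results of these data known. The genes named are the 10 genes, their most abundant transcripts, from each list those past the threshold or otherwise the 2 with the smallest unadjusted p, and the 5 genes most like the 10.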

Additional observations from a re-analysis of the deposited data

How the results depend on the processing

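No setting called any of the 10 gene sums. The number of genes called over the whole table was 29 and became 6 with a mean of at least 5 RPKM, 14 with median centring, 18 with no filter, 16 and 61 with pseudocounts of 0.01 and 1 RPKM, 17 with quantile normalization, 19 from transcripts of at least 1 RPKM only, and 647 (72 higher, 575 lower) with values scaled to library size only (RPM), added after seeing the data. The number of transcripts called was 33 and became 52 without the trend, 17 with a mean of at least 5 RPKM, 18 with no filter and 142 with a pseudocount of 1 RPKM. With 1 library left out, 2 to 2261 genes, 2 to 4961 transcripts and 0 to 7 transcripts of the 10 genes were called, the highest counts each without D391N replicate 1.

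With a replicate block, 2 genes and 7 transcripts were called. Correlations of deviations of same-numbered libraries were 0.07, 0.22 and -0.11, so the numbers were not taken to pair the libraries.

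The median of the 10 genes, 0.08, became 0.30 with median centring, which moved the median of all genes from -0.09 to 0.13, 0.21 with GC centring, -0.0014 with RPM and -0.0087 without D391N replicate 2. Signs turned for MCM2 (0.10), MCM5 (0.043) and PCNA (0.14) with median centring, for PCNA (0.10) with quantile normalization, for MCM2 (0.24), MCM5 (0.26) and CCNE2 (-0.038) with GC centring, and for MCM7 (0.14), RRM2 (-0.014) and TYMS (-0.038) with RPM. For MCM7 that setting leaves out its 2 most abundant transcripts, which have no length here. With 1 library left out, values ran from -0.043 to 0.21 for TYMS (below 0 without D391N replicate 1), from -0.11 to 0.25 for MCM3, -0.29 to 0.10 for PCNA and -0.025 to 0.15 for RRM2 (turned without D391N replicate 2), and from -0.053 to 0.25 for CCNE2 (below 0 without D391N replicate 3 or control replicate 3). The cause of the other turns was not tested. MCM4 and MCM6 kept their sign in all 18 settings, MCM4 between 0.0080 (without D391N replicate 2) and 0.63 (quantile normalization). MCM5 was at -0.57 with RPM (limma adjusted p = 0.0756). Of the other lists, the polymerase genes turned in 4 settings (medians -0.18 to 0.11), nucleotide synthesis in 4 (-0.085 to 0.22) and S-phase chromatin in 2 (-0.035 to 0.30), and the remaining lists kept the sign of their medians in all 18. The histone call was lost in 7, among them the replicate block and a mean of at least 5 RPKM, which leaves H2BC10 out.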
